A study of Mus musculus with 3 samples.

Results

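Long noncoding RNAs (lncRNAs) of mouse liver are described here across 3 RNA sequencing libraries. A gene was taken when the deposited tables gave it the gene type lncRNA and its read counts summed over the 3 libraries reached 300. The genes were thus chosen by their summed counts, 164 of the 41799 listed. The tables hold 12116 lncRNA rows in all, and 4264 of them had at least 1 count. These sums are therefore a description of their level and no result. Just inside the minimum lay Gm9920 with 300 counts, Gm10658 with 301 and Peg13 with 304, and just outside it 1500011K16Rik with 299 and 2310001H17Rik and 1700034P13Rik with 296 each.

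The study sequenced total liver RNA, extracted with TRIzol, from male C57BL/6 mice aged 14 weeks. 1 library came from mice on a high-fat diet (HFD) that also received DfCS-Ib at 40 mg/kg by gavage, 1 from mice on the high-fat diet alone, and 1 from mice on regular chow. The design text calls the treatment a sulfated oligosaccharide, and DfCS-Ib is its code. The labels give 8 mice per group and do not state how many of them gave RNA to each library. With 1 library per group there is no replicate check and no test, and every difference below describes these 3 libraries and not the conditions. The strain, sex, age and tissue were the same in all 3 groups. In bulk liver, fewer cells of a type and less RNA per cell cannot be told apart.

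LncRNAs are transcripts that are not known to be translated into a protein of usual size. Some stay in the nucleus and build or attach to nuclear bodies, some carry small nucleolar RNAs or microRNAs in their introns or exons, and some lie antisense to a coding gene or next to one. In liver, single lncRNAs have been described as partners of lipid, glucose and bile acid pathways, but most have no described role, and many gene models were predicted from transcript evidence alone. Of the 164 symbols, 42 begin with LOC, 55 with Gm and 42 end in Rik, which are provisional names. RefSeq had a record with the same gene ID for 117 of the 164, and gave it the type lncRNA in 109 and protein-coding in 8.

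The DfCS-Ib, HFD and chow libraries held 10969699, 12279537 and 11028671 counts. The 164 lncRNAs took 0.691% (95% exact Clopper-Pearson interval 0.686 to 0.696) of the counts in the DfCS-Ib library, 0.661% (0.656 to 0.665) in the HFD library and 0.691% (0.686 to 0.696) in the chow library. None of the 164 was at 0 in a library, and the lowest single count was 66 in the DfCS-Ib library, 45 in the HFD library and 34 in the chow library. Hepatocyte markers (Alb, Apoa1, Ttr, Serpina1a, Hnf4a and Cps1) summed to 109914, 101440 and 126882 CPM (TMM-scaled counts per library of equal size) in the DfCS-Ib, HFD and chow libraries, while the muscle markers Ckm and Myh4 and the pancreas markers Cpa1 and Pnlip were at 0 in every library. The other muscle marker, Acta1, had 1 count, in the HFD library, and the other pancreas marker, Cela1, had 57 counts in the DfCS-Ib library, 170 in the HFD library and 36 in the chow library. All ranges in parentheses beside folds, shares and levels are 95% exact intervals and cover counting error only.

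The level was concentrated in few genes. The 10 with the most counts held 49.0% of the counts of all 164, and the median summed count was 620, against 1054 over all 8098 genes with at least 300. Malat1, the abundant transcript of nuclear speckles, had the most counts, with 8826 in the DfCS-Ib library, 10881 in the HFD library and 11796 in the chow library. Its RPKM, the authors' count per length and library total, was 115 in the DfCS-Ib library, 127 in the HFD library and 153 in the chow library. Per length the first place was taken by Gm30611, a gene model antisense to Ahsg, at 497 RPKM in the DfCS-Ib library, 354 in the HFD library and 442 in the chow library. Gm30505, a second model antisense to Ahsg, followed with 171, 122 and 169 RPKM in the same libraries. Averaged over the libraries, the RPKM of the 164 genes had a median of 8.42 and ran down to 0.162 for Kcnq1ot1, whose gene model is 83437 bases long and was the longest.

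Most of these genes share their place in the genome with another gene model. Of the 164, 102 overlapped a protein-coding gene on the opposite strand by at least 1 base of the deposited spans, 10 a protein-coding gene on the same strand and 2 both kinds. Another 13 overlapped only noncoding models, and 41 overlapped none. For 99 of the 164 (60.4%) the coding gene on the opposite strand itself had at least 300 counts. The same held for 56.7% of the 268 lncRNA rows with at least 100 but fewer than 300 counts, for 25.7% of the 3832 rows with at least 1 but fewer than 100 counts and for 2.33% of the 7852 rows at 0. Level and overlap thus went together across lncRNA rows, as the plot of overlap by summed count shows. In the GENCODE M21 annotation, 101 of the 164 spans held exon bases of a coding gene of the opposite strand. Of 94 genes whose own exons could be matched there, 48 shared exon bases with such an exon. Whether the counting used the strand is not given in the sources used here, so reads of an antisense pair cannot be told apart, and each value below for a gene with such a partner may hold reads of that partner.

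**Figure D1:**
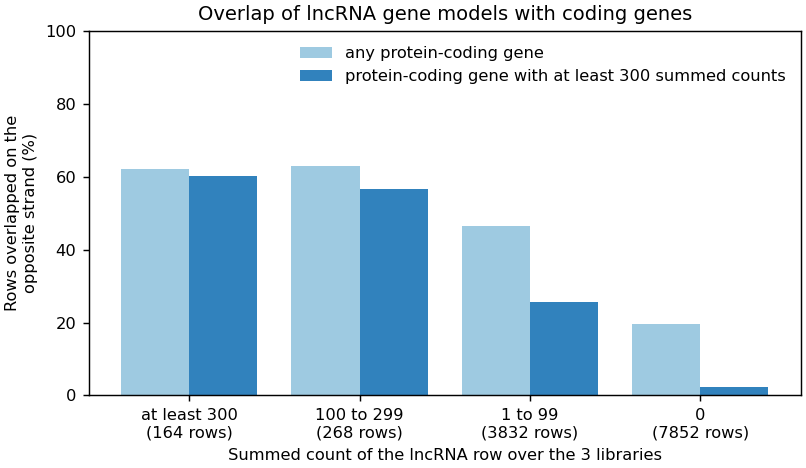
Percent of lncRNA rows (vertical axis) whose span overlaps a protein-coding gene on the opposite strand, by the summed count of the row (horizontal axis); light bars count any coding gene, dark bars one with at least 300 counts. The dark bar is 60.4% for the 164 rows with at least 300 counts and 2.33% for the 7852 rows at 0.

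The lncRNAs of nuclear bodies, small RNA hosts and imprinted domains stayed under 2-fold in every comparison. Among the genes of nuclear bodies and chromatin, Malat1 measured 823 CPM in the DfCS-Ib library, 846 CPM in the HFD library and 1096 CPM in the chow library. It was lower than in chow by 1.33-fold (1.30 to 1.37) in the DfCS-Ib library and by 1.296-fold (1.26 to 1.33) in the HFD library. Neat1, the scaffold of paraspeckles, lay the other way by a small step, at 119 CPM in the DfCS-Ib library, 125 CPM in the HFD library and 110 CPM in the chow library. Tug1, a nuclear and cytoplasmic lncRNA, had 449 counts in the DfCS-Ib library, 420 in the HFD library and 594 in the chow library, and was 1.69-fold (1.49 to 1.92) lower in the HFD library than in chow. Firre, an X-linked RNA that organises nuclear contacts, had 265 counts in the DfCS-Ib library, 399 in the HFD library and 310 in the chow library. Also entered in this list, 1700020I14Rik had 288, 306 and 328 counts and 2900097C17Rik 362, 342 and 325 counts in the same libraries. The data do not show where in the cell these RNAs lie. The gene ID of 2900097C17Rik leads to a RefSeq record on another chromosome than its deposited position. None of these 6 genes reached a 2-fold difference in a comparison.

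Hosts of small RNAs were as even. Gas5, whose introns encode small nucleolar RNAs, had 606 counts in the DfCS-Ib library, 604 in the HFD library and 602 in the chow library. Scaled to the library sizes, this made it 1.203-fold (1.07 to 1.35) higher in the DfCS-Ib library than in the HFD library and 1.19-fold (1.06 to 1.34) lower in the HFD library than in chow. Snhg8, another host, had 216 counts in the DfCS-Ib library, 249 in the HFD library and 204 in the chow library, and every interval of its ratios held 1. Of 15 snoRNA hosts in the list that were matched to a row, these 2 were the lncRNAs with at least 300 counts. Under that minimum, hosts lay 2-fold apart in both directions between the DfCS-Ib and HFD libraries. Snhg1 was 2.17-fold (1.43 to 3.34), Snhg4 2.12-fold (1.03 to 4.56) and Snhg5 2.08-fold (1.38 to 3.19) higher in the DfCS-Ib library. Lower there were Snhg11, listed as protein-coding, by 2.197-fold (1.59 to 3.08) and Snhg14 by 5.00-fold (1.11 to 46.0). Counts were low, with 23 and 13 for Snhg4 and 2 and 12 for Snhg14 in the DfCS-Ib and HFD libraries.

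In all, 5 of the 164 spans held a microRNA or snoRNA gene model on the same strand, namely Gas5, Snhg8, Mir22hg, D030055H07Rik and Raver1-fdx1l, the last pair named after their values were seen. The Mir7082 precursor inside Raver1-fdx1l had 3 counts in the DfCS-Ib library, 4 in the HFD library and 2 in the chow library, and the other microRNA precursors had more. The mature microRNAs of the Mir22hg and D030055H07Rik loci, from RefSeq's GRCm38.p6 table, are shown because the host's reads and the precursor's reads are listed separately. The seed, bases 2 to 8, which pairs with target messages, is in capitals, and no 2 of the 4 share one. The miR-22 pair lies at chr11:75463734-75463755 and chr11:75463772-75463793 and the miR-135a pair at chr9:106154140-106154162 and chr9:106154179-106154200, all on the + strand.
miR-22-5p: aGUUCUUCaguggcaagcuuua
miR-22-3p: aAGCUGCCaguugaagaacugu
miR-135a-5p: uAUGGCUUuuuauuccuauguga
miR-135a-1-3p: uAUAGGGAuuggagccguggcg
Mir22hg had 404 counts in the DfCS-Ib library, 512 in the HFD library and 451 in the chow library, and every interval of its ratios held 1. The row of the Mir22 precursor inside it had 16, 26 and 5 counts in the same libraries. D030055H07Rik had 594 counts in the DfCS-Ib library, 442 in the HFD library and 463 in the chow library, beside 157, 112 and 120 counts for the Mir135a-1 precursor. Reads of a precursor row in a library of long RNA do not measure the mature microRNA.

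Both imprinted members carried fewer counts in the HFD library than in chow. Kcnq1ot1, the paternally expressed antisense RNA of the Kcnq1 domain, had 129 counts in the DfCS-Ib library, 128 in the HFD library and 202 in the chow library. It was lower than in chow by 1.56-fold (1.25 to 1.96) in the DfCS-Ib library and by 1.89-fold (1.505 to 2.37) in the HFD library. Peg13, also expressed from the paternal allele, had 106, 89 and 109 counts in the DfCS-Ib, HFD and chow libraries. Meg3, Rian and Airn, imprinted lncRNAs of other domains, were at 0 throughout, and H19, a fetal liver transcript, had 4, 3 and 3 counts.

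The protein partners of these RNA classes were looked at as well. Of 11 proteins of paraspeckles and speckles with at least 300 counts, 0 were 2-fold apart in a comparison. The same held for 6 snoRNP proteins, 12 of nonsense-mediated decay and 11 of Polycomb and other chromatin complexes. Over all genes with at least 300 counts, the shares per comparison and direction ran from 0.358% to 3.73%. A count of 0 in lists this short, here or for the lncRNA classes above, thus does not set them apart. Nop56, a snoRNP protein gene, was lower by 1.97-fold (1.58 to 2.47) in the HFD library than in chow. Their medians for the HFD library against chow, on the log2 scale, were -0.25, -0.15, -0.20 and -0.19 in that order, beside 0.00 over all 8098 genes with at least 300 counts.

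**Figure D2:**
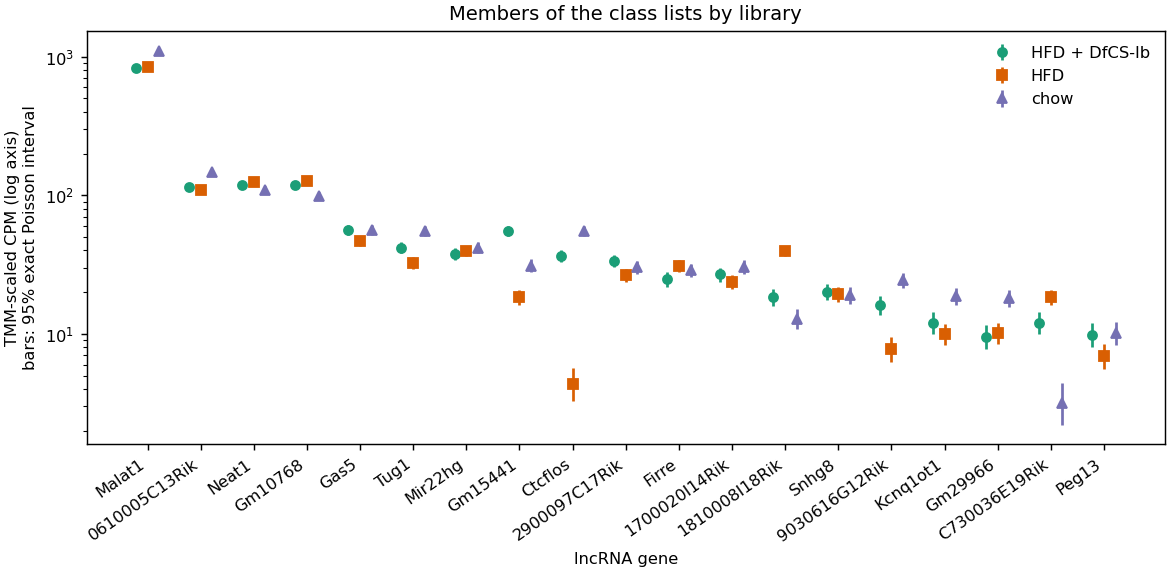
TMM-scaled CPM (vertical log axis) of all 19 lncRNAs from the class lists, ordered by summed count, in the DfCS-Ib (circles), HFD (squares) and chow (triangles) libraries; bars are 95% exact Poisson intervals, for counting error only. Malat1 lies at the left at 823, 846 and 1096 CPM, the symbols lie widest apart for Ctcflos, with the HFD library lowest, and Peg13 is at the right.

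As a whole the 164 lncRNAs were centred near 0 in each comparison but spread wider than coding genes of the same count minimum. For the HFD library against chow the median log2 ratio was -0.07, with a standard deviation over genes of 0.92, against 0.58 over protein-coding genes. The medians were -0.02 for the DfCS-Ib library against the HFD library and -0.03 for the DfCS-Ib library against chow, with standard deviations of 0.70 and 0.48, against 0.51 and 0.36 for coding genes. The median summed count was 620 for the 164 lncRNAs and 1054 over all genes with at least 300, and counting error is larger at fewer counts. The part of counting error in the wider spread was not tested. The 3 comparisons share libraries pairwise and are not independent of one another.

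The comparison of the HFD library with chow asks what went with the diet. At least 2-fold higher in the HFD library were 11 of the 164 lncRNAs (6.71%), beside 3.73% of all genes with at least 300 counts. At least 2-fold lower were 13 (7.93%), beside 2.53% of all such genes. Of the 11, 7 had an opposite-strand coding gene with at least 300 counts, and in 3 of these 7 the coding gene was itself at least 2-fold higher. Of the 13, 7 had such a coding gene, and it was at least 2-fold lower in 4. The plot of the genes at least 2-fold apart shows them by library.

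**Figure D3:**
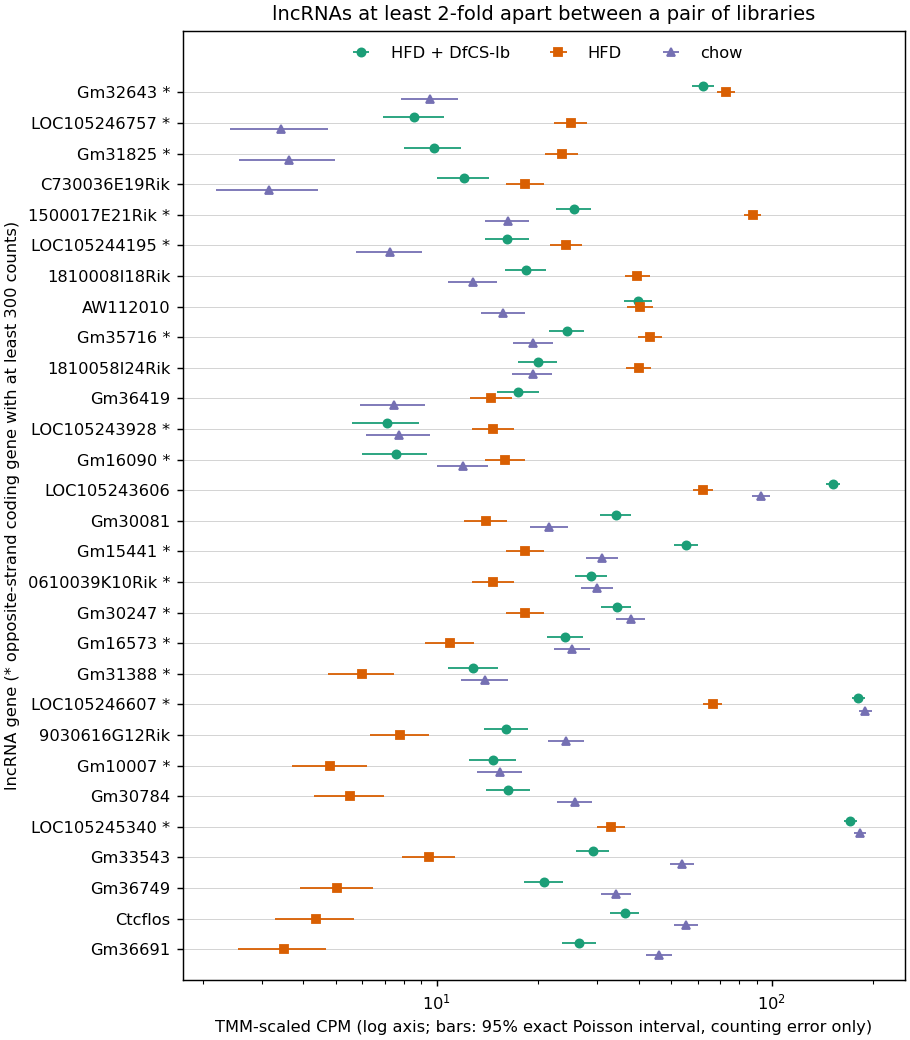
TMM-scaled CPM (horizontal log axis) of 29 of the 30 lncRNAs that were at least 2-fold apart in any comparison (vertical axis, ordered by the ratio of the HFD library to chow), in the DfCS-Ib (circles), HFD (squares) and chow (triangles) libraries; bars are 95% exact Poisson intervals and an asterisk marks an opposite-strand coding gene with at least 300 counts. At the bottom the HFD symbols of Gm36691, Ctcflos and Gm36749 lie far to the left of both others, and at the top the chow symbol of Gm32643 lies far to the left of both others.

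The lowest ratios belonged to 3 lncRNAs that lie side by side upstream of Pck1, the gene of the gluconeogenic enzyme phosphoenolpyruvate carboxykinase, on chromosome 2 of mm10. Ctcflos, named as the opposite-strand transcript of Ctcfl, had 391 counts in the DfCS-Ib library, 56 in the HFD library and 596 in the chow library. Gm36691 had 286, 45 and 497 counts and Gm36749 had 224, 65 and 370 counts in the same libraries. For each of the 3 genes the HFD library was far below both others, and the DfCS-Ib library was below chow. Against chow, the HFD library was lower by 12.7-fold (9.67 to 17.1) for Ctcflos, by 13.2-fold (9.72 to 18.3) for Gm36691 and by 6.81-fold (5.22 to 9.003) for Gm36749. Against the HFD library, the DfCS-Ib library was higher by 8.37-fold (6.32 to 11.3) for Ctcflos, by 7.62-fold (5.55 to 10.7) for Gm36691 and by 4.13-fold (3.12 to 5.54) for Gm36749. Against chow, the DfCS-Ib library was lower by 1.52-fold (1.34 to 1.73), 1.73-fold (1.49 to 2.01) and 1.65-fold (1.39 to 1.95) for these genes in that order.

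Pck1 itself had 54453 counts in the DfCS-Ib library, 26428 in the HFD library and 49303 in the chow library. It was lower by 2.23-fold (2.198 to 2.26) in the HFD library than in chow, a smaller step than for any of the 3 lncRNAs, and higher by 2.47-fold (2.44 to 2.51) in the DfCS-Ib library than in the HFD library. The deposited spans of Ctcflos, Gm36749 and Gm36691 end 19869, 6585 and 4677 bases before the start of Pck1. Gm36691 and Gm36749 overlap each other on opposite strands, so their reads cannot be told apart. Ctcflos lies inside LOC105244392, a gene model on the same strand listed as protein-coding, which had 122 counts in the DfCS-Ib library, 30 in the HFD library and 147 in the chow library. Ctcfl, on the opposite strand and not overlapping Ctcflos, had 88, 37 and 129 counts. Zbp1, a coding gene on the other side of Pck1, which is not drawn, went the other way, with 51 counts in the DfCS-Ib library, 65 in the HFD library and 17 in the chow library.

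**Figure D4:**
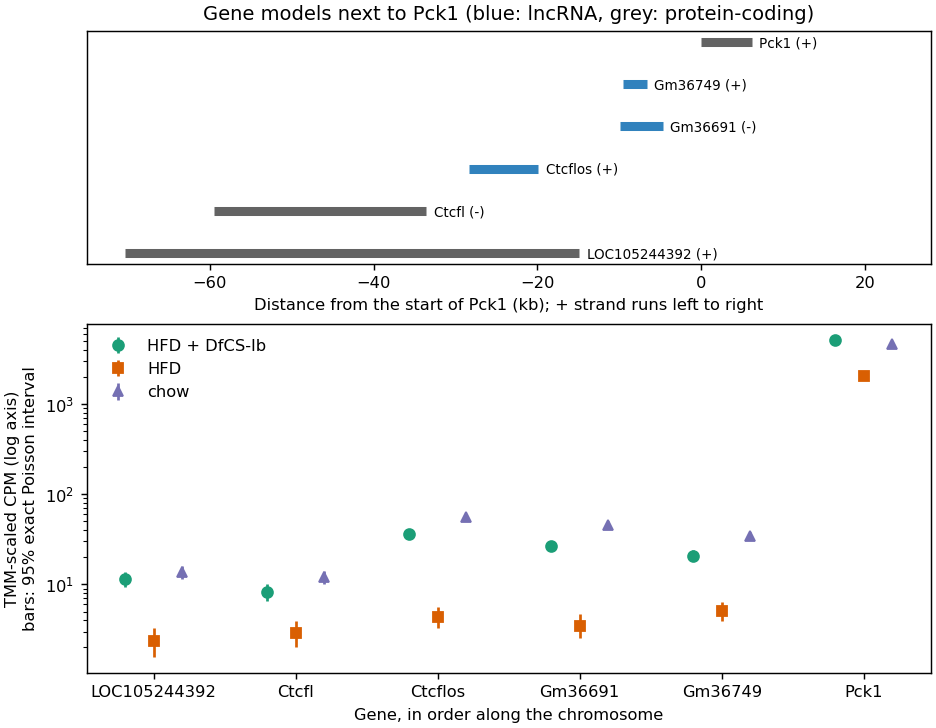
Top: gene models next to Pck1 by their distance from its start in kb (horizontal axis), lncRNAs in blue and genes listed as protein-coding in grey. Bottom: TMM-scaled CPM of these genes (vertical log axis) in the DfCS-Ib (circles), HFD (squares) and chow (triangles) libraries with 95% exact Poisson intervals; each of the 6 genes drawn is lowest in the HFD library.

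The promoters of these 3 neighbours are shown because the genes moved in the same direction in both comparisons with the HFD library. Each runs from 250 bases before to 50 bases after a transcript start in RefSeq, build GRCm38.p6, which is mm10. They lie at chr2:173124499-173124798 on the + strand for Ctcflos, chr2:173142555-173142854 on the + strand for Gm36749 and chr2:173148083-173148382 on the - strand for Gm36691. RefSeq places the starts of Gm36749 and Gm36691 elsewhere than the ends of the deposited spans. Capitals mark matches to TATAAA, the TATA box, and GAANNTTC, a heat shock element core, read on both strands.
Ctcflos: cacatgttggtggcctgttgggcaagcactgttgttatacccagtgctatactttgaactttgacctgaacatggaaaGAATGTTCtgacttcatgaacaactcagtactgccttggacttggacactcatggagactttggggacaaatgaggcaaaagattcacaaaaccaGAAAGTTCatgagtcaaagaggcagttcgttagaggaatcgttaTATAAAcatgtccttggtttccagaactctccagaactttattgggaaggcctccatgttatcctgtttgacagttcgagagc
Gm36749: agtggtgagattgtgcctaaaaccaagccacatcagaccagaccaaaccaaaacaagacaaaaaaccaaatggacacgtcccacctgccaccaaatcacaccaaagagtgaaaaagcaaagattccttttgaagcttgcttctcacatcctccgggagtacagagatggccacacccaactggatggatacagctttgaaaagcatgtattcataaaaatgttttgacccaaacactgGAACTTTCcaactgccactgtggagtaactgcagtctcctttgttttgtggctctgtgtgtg
Gm36691: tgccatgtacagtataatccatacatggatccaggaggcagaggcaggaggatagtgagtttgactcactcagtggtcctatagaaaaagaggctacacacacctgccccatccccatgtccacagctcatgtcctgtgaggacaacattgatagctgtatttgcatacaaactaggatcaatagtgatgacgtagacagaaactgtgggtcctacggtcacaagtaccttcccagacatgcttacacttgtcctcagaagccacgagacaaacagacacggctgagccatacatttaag
In Ctcflos, TATAAA begins 33 bases before the start, and the GAANNTTC matches begin 172 and 77 bases before it. In Gm36749 a GAANNTTC match begins 12 bases before the start, and the Gm36691 window held no match to any of 7 motifs searched. Over the 98 lncRNAs with a RefSeq promoter, 13.3% held TATAAA and 7.14% held GAANNTTC in at least 1 window, against 15.7% and 9.04% of 27025 genes of all kinds. The shares for CACGTG, the E-box, were 7.14% and 8.09%, for TTCNNNGAA, a STAT element, 7.14% and 9.55%, for TTATGNAA, a D-box, 3.06% and 3.99%, and for TCACNCCAC, a sterol element core, 3.06% and 1.44%. A pair of AGGTCA spaced by 1 base, the direct repeat of several nuclear receptors, was held by 1 of the 98 lncRNAs (1.02%), Etohd2, and by 13 of the 27025 genes (0.0481%). Motifs may overlap one another, and a match is a string of letters and not a site.

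Some lncRNAs that overlap no other gene model were also lower in the HFD library. 9030616G12Rik, of unknown role, had 173 counts in the DfCS-Ib library, 100 in the HFD library and 262 in the chow library. It was 3.13-fold (2.48 to 3.99) lower in the HFD library than in chow. Gm30784 had 175, 71 and 278 counts in the DfCS-Ib, HFD and chow libraries, a difference of 4.68-fold (3.596 to 6.17) between the HFD library and chow in the same direction. Gm33543, which overlaps only another lncRNA model of few counts, had 314, 122 and 580 counts and was lower by 5.68-fold (4.67 to 6.97). All 3 were lowest in the HFD library and highest in chow.

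Models antisense to coding genes made up the rest. LOC105246607 had 1944 counts in the DfCS-Ib library, 857 in the HFD library and 2047 in the chow library, and Gm10007 had 158, 62 and 166. Both lie antisense to Gfra1, a co-receptor of the growth factor GDNF, which had 5803, 2432 and 6260 counts in these libraries. The HFD library was lower than chow by 2.86-fold (2.64 to 3.10) for LOC105246607, by 3.202-fold (2.38 to 4.36) for Gm10007 and by 3.08-fold (2.94 to 3.23) for Gfra1. LOC105245340, antisense to a kinase gene, Camk2b, had 1839, 426 and 1972 counts in the DfCS-Ib, HFD and chow libraries and was lower by 5.54-fold (4.98 to 6.16) in the HFD library than in chow. Camk2b had only 149, 64 and 140 counts, a step of 2.62-fold (1.93 to 3.57). Per length the lncRNA stood at 2857% of Camk2b, the highest share of any pair, and its span held no exon bases of that gene.

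For the other antisense models that were lower, the coding gene took part to a varying degree. Gm30247, antisense to Agpat6, a glycerol phosphate acyltransferase, had 369 counts in the DfCS-Ib library, 236 in the HFD library and 408 in the chow library, and was lower by 2.07-fold (1.76 to 2.44) in the HFD library than in chow, beside 2.15-fold (2.05 to 2.26) for Agpat6. Gm31388, antisense to Abcb4, the phospholipid transporter of bile, had 138, 77 and 150 counts and was lower by 2.33-fold (1.76 to 3.11), beside 1.72-fold (1.65 to 1.798) for Abcb4. Gm16573, antisense to Parp4, had 259, 141 and 273 counts and was lower by 2.32-fold (1.88 to 2.86), beside 1.49-fold (1.26 to 1.76) for Parp4. The 13th gene of the group, 0610039K10Rik, is antisense to Serinc3.

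On the higher side, Gm32643 stood first. This model, antisense to Nrp1, the co-receptor neuropilin-1, had 668 counts in the DfCS-Ib library, 940 in the HFD library and 103 in the chow library. Both libraries of the diet lay far above chow, and the HFD library exceeded chow by 7.63-fold (6.22 to 9.45). Nrp1 had 1154, 1397 and 872 counts in the same libraries, a difference of 1.34-fold (1.23 to 1.46). C730036E19Rik, which overlaps only a lncRNA model of few counts, had 129 counts in the DfCS-Ib library, 236 in the HFD library and 34 in the chow library, and was 5.80-fold (4.04 to 8.58) higher in the HFD library than in chow. AW112010, whose RNA encodes a small protein in mouse immune cells although it is listed as noncoding, had 428, 520 and 170 counts and was 2.56-fold (2.15 to 3.06) higher. 1810008I18Rik, which overlaps no model, had 198, 511 and 138 counts and was 3.097-fold (2.56 to 3.76) higher.

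Beside AW112010 stand the markers of Kupffer cells, the macrophages of the liver, of which 6 of 7 list entries were matched. Their summed level was 592 CPM in the DfCS-Ib library, 341 CPM in the HFD library and 268 CPM in the chow library, while AW112010 measured 39.9, 40.4 and 15.8 CPM. Clec4f and Cd5l gave 218 and 182 CPM of that sum in the DfCS-Ib library. Of 5 Kupffer markers with at least 300 counts, 4 were at least 2-fold higher in the DfCS-Ib library than in chow. In the HFD library 0 were at least 2-fold higher than in chow. Over all genes with at least 300 counts, the shares were 1.56% and 3.73%. Marco, under that minimum, had 99 counts in the DfCS-Ib library, 33 in the HFD library and 49 in the chow library. It was the only matched marker with a lower CPM in the HFD library than in chow. T and NK cell markers summed to 24 counts in the DfCS-Ib library, 17 in the HFD library and 19 in the chow library. The part of these cells in the level of AW112010 was not tested.

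Among the antisense models that were higher, 3 lay against coding genes that were higher too. 1500017E21Rik had 275 counts in the DfCS-Ib library, 1130 in the HFD library and 175 in the chow library, beside 219, 854 and 156 for Hectd2, a ubiquitin ligase gene on the other strand. The HFD library was above chow by 5.40-fold (4.601 to 6.37) for the lncRNA and by 4.58-fold (3.86 to 5.47) for Hectd2. Gm31825 had 105, 304 and 39 counts and lay 6.52-fold (4.66 to 9.35) above chow in the HFD library. Its partner Hsd3b3, a steroid dehydrogenase gene with near-identical copies, among which reads may be divided, lay 5.36-fold (4.82 to 5.96) above. LOC105246757 had 92, 323 and 37 counts and lay 7.30-fold (5.19 to 10.6) above chow in the HFD library, a smaller step than the 32.4-fold (30.5 to 34.5) of its partner Car3, a carbonic anhydrase gene. Its RPKM was 1.27% of that of Car3.

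Other models went their own way from the coding gene. LOC105244195, which overlaps Rapgef4 on the other strand, had 174 counts in the DfCS-Ib library, 313 in the HFD library and 78 in the chow library, and was 3.36-fold (2.61 to 4.36) higher in the HFD library than in chow. Rapgef4, which encodes the cyclic AMP sensor EPAC2, had 3719, 1479 and 3256 counts and was 2.63-fold (2.47 to 2.801) lower. Gm35716, antisense to Fam120b, had 262, 558 and 209 counts and was 2.23-fold (1.901 to 2.63) higher, while the interval of Fam120b held 1. Outside these pairs, 1810058I24Rik, which overlaps no model, had 215, 515 and 208 counts and was 2.07-fold (1.76 to 2.44) higher. It is one of the 8 genes that RefSeq lists as protein-coding.

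Over the 99 antisense pairs, with 96 coding genes, the log2 ratio of the HFD library to chow of the lncRNA followed that of the coding gene, with a Pearson correlation across pairs of 0.73 and a Spearman correlation of 0.79. The pairs share both libraries, their depth and, where strand was not counted, some of the reads. The lncRNA and its partner were within 1.5-fold of each other's ratio in 87 of 99 pairs and at least 2-fold apart in 8. The median size of the difference was 0.13 on the log2 scale. In 96 of the pairs the span of the lncRNA held coding exon bases of the opposite strand, of the partner or of another coding gene. A lncRNA with more than 1 such coding gene was paired with the gene of most counts. For 16 lncRNAs that overlap no model and have a coding neighbour of at least 300 counts within 10 kb, the same correlations were 0.52 and 0.51. Per length, the lncRNA stood at a median of 26.4% of its partner's RPKM, above it in 13 pairs and under 10% in 22.

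**Figure D5:**
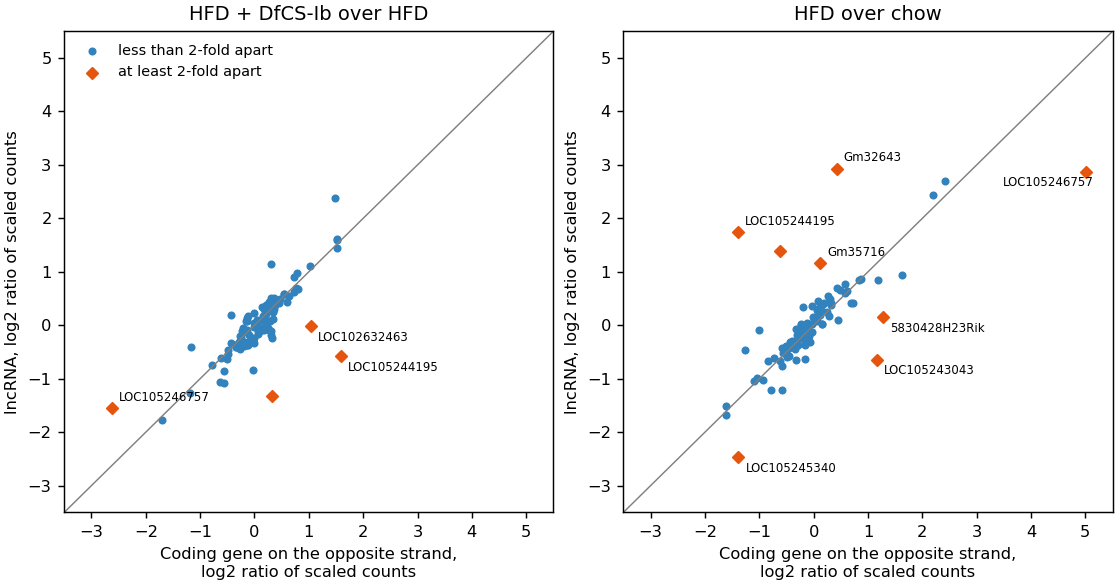
Log2 ratio of scaled counts of the lncRNA (vertical axis) against that of the coding gene on the opposite strand (horizontal axis) in 99 pairs, for the DfCS-Ib library over the HFD library (left) and the HFD library over chow (right); the grey line marks equal ratios and diamonds mark pairs at least 2-fold apart. Most pairs lie along the line, with 4 diamonds on the left and 8 on the right, where Gm32643 lies above the line and LOC105246757 below it.

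Among the pairs 2-fold apart were also LOC105243043 with Acsm1, a medium-chain acyl-CoA synthetase gene, and LOC102632463 with Prox1, a hepatocyte transcription factor gene. LOC105243043 had 130 counts in the DfCS-Ib library, 137 in the HFD library and 179 in the chow library, beside 3308, 5348 and 1996 for Acsm1. For the HFD library against chow, the log2 ratio was -0.64 for the lncRNA and 1.16 for Acsm1. LOC102632463 had 101, 123 and 141 counts, beside 1928, 1131 and 2277 for Prox1. For the DfCS-Ib library against the HFD library, its log2 ratio was -0.02 and that of Prox1 1.03. Neither lncRNA was 2-fold apart in a comparison, while both coding genes were.

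The most abundant antisense models moved with their coding genes. Gm30611 and Gm30505 had 10842 and 3321 counts in the DfCS-Ib library, 8650 and 2653 in the HFD library and 9681 and 3296 in the chow library. Ahsg, which encodes the liver glycoprotein fetuin-A, had 78489, 64489 and 73463. The log2 ratio of the HFD library to chow was -0.42 for Gm30611, -0.57 for Gm30505 and -0.45 for Ahsg. Gm10069 had 4718 counts in the DfCS-Ib library, 5376 in the HFD library and 3915 in the chow library, antisense to Pzp, a protease inhibitor gene, with 67611, 71493 and 55364. Gm30097 had 2456, 2491 and 2159 counts, antisense to Fgg, the fibrinogen gamma chain gene, with 48575, 46292 and 42357. The RPKM of these 4 lncRNAs was 3.67% to 10.3% of that of the coding gene. 0610005C13Rik, at 1240, 1415 and 1589 counts, stood at 1058% of the RPKM of its partner Bcat2, a branched-chain aminotransferase gene. BC024386, which overlaps no model, had 1642, 2609 and 1524 counts and was 1.43-fold (1.34 to 1.53) higher in the HFD library than in chow.

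The comparison of the DfCS-Ib library with the HFD library asks what went with the oligosaccharide under the same diet. At least 2-fold higher in the DfCS-Ib library were 14 of the 164 lncRNAs (8.54%), beside 2.77% of all genes with at least 300 counts. At least 2-fold lower were 7 (4.27%), beside 2.04%. Of the 14, 6 had an opposite-strand coding gene with at least 300 counts, which was at least 2-fold higher in 5, and of the 7, 6 had one, which was at least 2-fold lower in 3. Across the 99 pairs the Pearson and Spearman correlations with the coding gene were 0.797 and 0.79, 90 pairs were within 1.5-fold and 4 were at least 2-fold apart.

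Beside the 3 neighbours of Pck1, the higher genes were led by LOC105245340, by 5.18-fold (4.66 to 5.77). Gm33543 followed by 3.09-fold (2.497 to 3.84), Gm10007 by 3.06-fold (2.26 to 4.17), Gm30784 by 2.96-fold (2.23 to 3.95) and LOC105246607 by 2.72-fold (2.51 to 2.95). Gm16573, Gm31388 and 9030616G12Rik were also at least 2-fold higher, by 2.203-fold, 2.15-fold and 2.07-fold (1.61 to 2.68 for the last). Each of these 8 genes was lowest in the HFD library. Of all 14 higher genes, 11 had an interval wholly beyond 2-fold, but Gm16573, Gm31388 and 9030616G12Rik did not.

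Also higher were 3 genes that were at least 2-fold apart only between the DfCS-Ib and HFD libraries. Gm15441, antisense to Txnip and described as a target of PPAR alpha in mouse liver, had 594 counts in the DfCS-Ib library, 236 in the HFD library and 335 in the chow library. It was 3.02-fold (2.59 to 3.53) higher in the DfCS-Ib library than in the HFD library and 1.78-fold (1.55 to 2.04) higher than in chow. Txnip, which encodes the thioredoxin-interacting protein that limits glucose uptake, had 2590, 1090 and 1369 counts in the same libraries and was 2.85-fold (2.65 to 3.06) and 1.898-fold (1.78 to 2.03) higher. LOC105243606, which lies within a coding gene of the same strand, whose reads cannot be told apart from its own, had 1630, 803 and 997 counts and was 2.43-fold (2.24 to 2.65) higher in the DfCS-Ib library than in the HFD library. Gm30081, which overlaps no model, had 367, 180 and 233 counts and was 2.45-fold (2.04 to 2.94) higher. All 3 lncRNAs were highest in the DfCS-Ib library.

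The 7 genes that were lower in the DfCS-Ib library than in the HFD library included 1500017E21Rik, by 3.43-fold (3.0003 to 3.92), with Hectd2 by 3.25-fold (2.799 to 3.79). LOC105246757 was lower by 2.93-fold (2.32 to 3.73), with Car3 by 6.18-fold (6.01 to 6.36), and Gm31825 by 2.41-fold (1.93 to 3.04), with Hsd3b3 by 2.28-fold (2.11 to 2.46). 1810008I18Rik was lower by 2.15-fold (1.82 to 2.55). Gm16090, which overlaps Dsg2 by 6188 bases and Ttr by 11 bases on the other strand, had 81 counts in the DfCS-Ib library, 206 in the HFD library and 129 in the chow library, and was lower by 2.12-fold (1.63 to 2.78). Ttr, the transthyretin gene, had 40732, 72490 and 36865 counts in the same libraries. Dsg2, a desmosomal cadherin gene, had 1223, 2313 and 1652 counts and was lower by 1.58-fold (1.47 to 1.69) in the DfCS-Ib library than in the HFD library. LOC105243928, antisense to the aldehyde oxidase gene Aox3, had 76, 190 and 83 counts and was lower by 2.08-fold (1.59 to 2.76), beside 1.54-fold (1.499 to 1.59) for Aox3. All 7 were highest in the HFD library.

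The comparison of the DfCS-Ib library with chow spans both the diet and the oligosaccharide. At least 2-fold higher in the DfCS-Ib library were 7 of the 164 lncRNAs (4.27%), beside 1.56% of all genes with at least 300 counts, and 0 were at least 2-fold lower, beside 0.358%. Of the 7, 4 had an opposite-strand coding gene with at least 300 counts, which was at least 2-fold higher in 2. Gm32643 was higher by 6.505-fold (5.28 to 8.08), C730036E19Rik by 3.81-fold (2.59 to 5.73), Gm31825 by 2.70-fold (1.85 to 4.01) and AW112010 by 2.53-fold (2.11 to 3.03). LOC105246757 was higher by 2.49-fold (1.69 to 3.76) and LOC105244195 by 2.24-fold (1.704 to 2.96). Gm36419, which overlaps no model, had 188 counts in the DfCS-Ib library, 187 in the HFD library and 80 in the chow library, and was higher by 2.36-fold (1.81 to 3.102). It was the only one of the 7 that was less than 2-fold higher in the HFD library than in chow, at 1.95-fold (1.497 to 2.57).

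Across the 3 libraries, a few lncRNAs had 1 library at least 2-fold from both others with these within 1.5-fold of each other. The HFD library lay below in 5 (LOC105246607, LOC105245340, Gm16573, Gm10007 and Gm31388) and above in 2, among them 1810008I18Rik. Chow lay below in 3, Gm32643, AW112010 and LOC105244195, and above in 0. The DfCS-Ib library lay apart in this way in 0. How often genes of other types show these patterns was not tested. These counts therefore do not set the lncRNAs apart from other genes. Over the 99 pairs, the correlations with the coding gene for the DfCS-Ib library against chow were 0.62 and 0.65, and 4 pairs were at least 2-fold apart.

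The list kept for liver and metabolism had 27 entries, of which 20 were matched and 8 are among the 164. It was chosen with earlier results of these data known and includes genes of unknown role, such as 9030616G12Rik. Besides those above, Gm10768, next to Abcc2, had 1271 counts in the DfCS-Ib library, 1628 in the HFD library and 1068 in the chow library. Gm29966 had 102, 130 and 194 counts and was lower than in chow by 1.896-fold (1.48 to 2.43) in the DfCS-Ib library and by 1.78-fold (1.42 to 2.25) in the HFD library. Of these 8, 1810008I18Rik and C730036E19Rik were at least 2-fold higher and Ctcflos and 9030616G12Rik at least 2-fold lower in the HFD library than in chow, and the other 4 were under 2-fold in that comparison.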

How the data were processed

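The authors deposited raw read counts per gene, per the file headers, for 41799 genes in each of 3 libraries, with gene type, strand, span and length. The deposited RPKM, per the file headers, equals the count scaled by that length and the file total with a deviation of at most 0.000506% where a gene had 100 counts or more. The submitters' processing notes name TopHat2 and mm10. For the counting tool, strand setting and annotation release, the answer is not given in the sources used here.

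Counts were scaled with TMM factors of 0.978 (DfCS-Ib), 1.048 (HFD) and 0.976 (chow) from edgeR 4.0.16 in R 4.3.3. Ratios of scaled counts carry 95% exact (Clopper-Pearson) intervals from the binomial split of the counts (scipy 1.17.1). A count of 0 took a floor of 3 counts. A gene was counted at 2-fold or more, beside all 8098 genes with at least 300 counts. The ratio and interval step was tested on simulated data. No test between groups was possible with 1 library each. Overlaps used the deposited spans, exon bases GENCODE M21, names and sequences RefSeq GRCm38.p6. Genes named were the 10 of most counts, up to 12 of the largest ratios per direction and comparison with an interval off 1, class list members and 3 on each side of the minimum, except a few genes that are not reported here. The genes and lists were chosen with earlier results of these data known. Alternatives were other scalings, count minimums, folds and gene sets.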

Additional observations from a re-analysis of the deposited data

How the results depend on the processing

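No paired analysis was possible because each group had 1 library, so leaving out a replicate was not possible either. Counts are given as higher and lower. With a minimum of 150 counts (318 lncRNAs) they were 26 and 27 for the HFD library against chow, 23 and 19 for the DfCS-Ib library against the HFD library, and 11 and 6 for the DfCS-Ib library against chow. With 1000 counts (48 lncRNAs) they were 4 and 5, 6 and 1, and 2 higher. With no minimum (4264) they were 799 and 962, 881 and 777, and 841 and 764. The medians were then -0.26 and 0.26 in the first and second comparisons. A gene at 0 in both libraries takes the ratio of the scaled library sizes, -0.26 and 0.26 on the log2 scale in these comparisons. Each of the 2 medians equals that value and thus does not describe a shift of the lncRNAs. Where only 1 count is 0, it is set to the floor of 3, above a count of 1 in the other library. Mirg, with 1 count in the HFD library and 0 in chow, is thus counted as lower in the HFD library. These counts therefore include genes called against the direction of their reads. A fold of 1.5 gave 24 and 27, 23 and 15, and 13 and 12. Intervals wholly beyond 2-fold left 2 lower in the second comparison and 3 higher in the third. The 41 lncRNAs that overlap no model gave 3 and 2, 3 and 1, and 2 higher, with a median of 0.0397 in the third. Among gene sets chosen after seeing the data, the 65 with no opposite-strand coding gene of at least 300 counts gave 4 and 6, 8 and 1, and 3 higher. The 109 that RefSeq also lists as lncRNA gave 6 and 11, 11 and 4, and 4 and 0. Fewer or more genes enter these sets by construction. Without TMM factors, and with deposited RPKM, the medians were 0.0376 and -0.12 in the first and second comparisons, since the median of all genes shifted to 0.10 and -0.11, and the counts were 13 and 11, and 13 and 8, where TMM gave 11 and 13, and 14 and 7. Of 150 ratios of named genes, 12 then left their counting interval. No ratio that was at least 2-fold changed direction under the alternatives run. Depth limits most the genes with few counts in 1 of the libraries compared.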

Other observations

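Among RNAs outside the 164 lncRNAs, named after their values were seen, Rn7sk, the RNA of the 7SK particle that holds back transcription elongation, had 19 counts in the DfCS-Ib library, 77 in the HFD library and 6 in the chow library. Rmrp, the RNA of RNase MRP, had 6, 30 and 3 counts in the same libraries. The small nucleolar RNA rows inside Snhg8 and Gas5 had 5, 1 and 8 counts (Snora24) and 0, 0 and 2 counts (Snord47) in these libraries. Xist, the RNA of X inactivation, had 2 counts in each library. B930025P03Rik, a lncRNA under the minimum of 300 counts, had 167 counts in the DfCS-Ib library, 12 in the HFD library and 79 in the chow library.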
